A study of Mus musculus with 2 samples.

Results

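Small leucine-rich proteoglycans are secreted proteins built from leucine-rich repeats that bind collagen fibrils of the extracellular matrix, most of them carrying sugar chains of chondroitin, dermatan or keratan sulfate. The 10 genes described here are Kera, Chad, Fmod, Dcn, Lum, Bgn, Ogn, Prelp, Aspn and Omd. They were found by name, as the non-control probes whose gene name on the array was one of these symbols. The set was chosen with earlier results of these data known, so its values beside those of all genes are descriptive. These genes took up 10 of 39429 probes, 1 probe per gene. They were 10 of the 15142 genes that were measured, meaning well above background on both arrays.

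Gene expression was compared between the gastrocnemius, the main calf muscle, of C57BL/6 male mice aged 9 weeks that were either controls or had worn a plaster cast on the hindlimb for 11 days. No transgene, deletion or drug is named for either group. The design text gives 6 mice per group and says that samples were pooled, read here as 1 pool of RNA from 6 mice per group, and each pool was hybridised to 1 array. Each group was n = 1, so the differences describe these 2 pools, no value has a p-value, and the spread between mice cannot be seen.

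These proteins fall into classes by sequence. Decorin (Dcn), biglycan (Bgn) and asporin (Aspn) form class I. Fibromodulin (Fmod), lumican (Lum), keratocan (Kera), Prelp and osteomodulin (Omd) form class II. Osteoglycin (Ogn, also called mimecan) belongs to class III and chondroadherin (Chad) to the non-canonical class IV. In tendon and in the connective tissue of muscle they are known to set the width and spacing of collagen fibrils, and decorin and biglycan also bind TGF-beta, a growth factor that drives matrix production.

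Keratocan, chondroadherin and fibromodulin were at least 2-fold lower on the cast array. Kera was 5.32-fold lower, Chad 3.91-fold lower and Fmod 2.16-fold lower. Decorin and biglycan, the class I members best known as TGF-beta binders, were within 1.23-fold of control under the 75th percentile scaling. Across the 10 genes, 7 were lower and 3 were higher, where Dcn turned to higher when the arrays were unscaled or scaled on the spike-ins. At least 2-fold lower were 3 genes, or 2 under those scalings, and at least 2-fold higher were 0. Over all measured genes, 2.11% were at least 2-fold lower and 2.23% at least 2-fold higher under the 75th percentile scaling. The counts of genes at least 2-fold lower were 120 unscaled and 118 scaled on the spike-ins. Those at least 2-fold higher were 834 and 863 of the 15142. Under the 75th percentile scaling, 53.0% of all measured genes were below 0. The median log2 ratio (cast over control, each array scaled to its own 75th percentile) was -0.76 for the 10 genes and -0.03 for all 15142 genes.

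The array holds a 60-base probe for each gene. The first 30 bases of the probes of the 3 genes with the largest differences, and of Prelp, whose probe was the only one of the 10 on the descending strand, are printed here as the deposited files give them, 5′ to 3′ on mm9. Capitals mark AATAAA, the usual polyadenylation signal.
Kera, chr10:97076230-97076289: gcagttattataacatagcatgcaaactat
Chad, chr11:94430136-94430195: ctcctttgagagaagctattgtagaacctc
Fmod, chr1:135943998-135944057: ggcaagcgtggttttcaaaacatgagaaag
Prelp, chr1:135806855-135806914, minus strand: gaAATAAAgtcatatggaaaacacccagca
AATAAA was present in 2 of the 10 probes, those of Prelp from base 3 and Aspn from base 11, and in 12.6% of all 39429 probes. Whether these letters act as a polyadenylation signal was not tested. No other probe on the array had the same sequence as any of the 10. Gene models on mm9 were not used here, so the exon or untranslated region under each probe is not given.

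Keratocan, a keratan sulfate proteoglycan first known from the cornea that is also made in tendon, was the only member whose probe was spotted more than once, with 10 spots on each array. The spots gave a processed signal of 790 to 872 in control, with a median of 833, and of 179 to 216 in cast, with a median of 203. The 2 sets did not overlap. Paired by position, the 10 log2 ratios ran from -2.53 to -2.32, with a mean of -2.41 and an SD between spots of 0.07. The spots lay in rows 170 to 484 of 532. These are technical replicates of 1 hybridisation per group, so the SD covers the error of single spots alone. Of 259 probes with several spots that were well above background on both arrays, 0 had a lower log2 ratio than Kera, and of all measured genes 5 did.

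**Figure D1:**
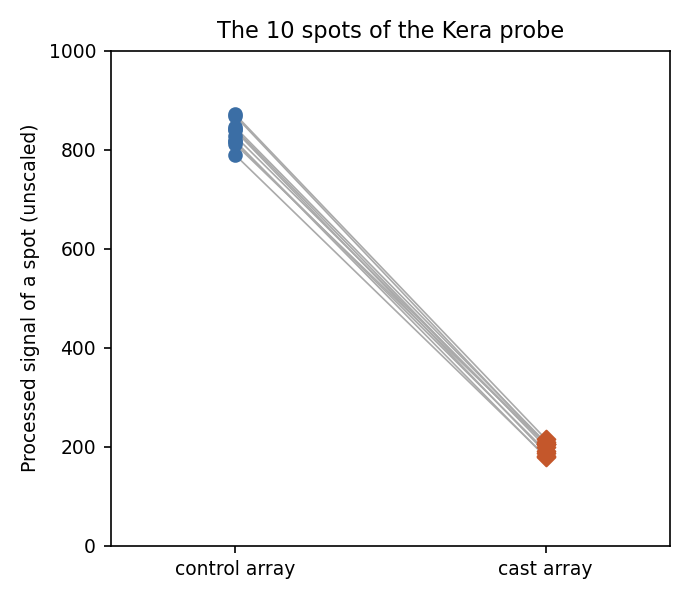
Processed signal (vertical axis, linear from 0, not scaled between arrays) of the 10 spots of the Kera probe on the control array (circles) and the cast array (diamonds), with lines joining spots at the same position. All control spots lie between 790 and 872 and all cast spots between 179 and 216.

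Chondroadherin, a cartilage and tendon matrix protein that binds collagen and cell-surface integrins, gave a signal of 741 in control and 240 in cast. Its log2 ratio was -1.97, and 20 of the measured genes had a lower one. For members with a single spot, the error was read from the 50 replicated probes nearest in signal. For each such probe, the variances of log2 signal between spots were summed over the 2 arrays and the square root taken. The SD given for Kera is instead that of its paired ratios. The median of the 50 roots was used as the spot-level SD. This spot-level SD was 0.09 for Chad. The difference was 21.3 times that SD.

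Fibromodulin, a collagen-binding keratan sulfate proteoglycan of tendon, gave 3839 in control and 2251 in cast. Its log2 ratio of -1.11 was 14.1 times its spot-level SD of 0.08, and 234 measured genes had a lower ratio. It was the member just past the 2-fold line, and Omd at -0.86 was the nearest on the other side. Unscaled, or scaled on the spike-in controls, Fmod was at -0.77 and -0.76 and no longer 2-fold lower.

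Osteomodulin, a keratan sulfate proteoglycan of mineralised tissue, gave 83.8 in control and 58.2 in cast. This was a log2 ratio of -0.86 with a spot-level SD of 0.15. Osteoglycin, which takes part in collagen fibril formation, gave 2753 and 1956, a log2 ratio of -0.83 with a spot-level SD of 0.08. Lumican, the close relative of keratocan and fibromodulin, gave 1738 and 1372, a log2 ratio of -0.68 with a spot-level SD of 0.08. These 3 genes were thus 1.82-fold, 1.78-fold and 1.6-fold lower on the cast array. Together with Kera, Chad and Fmod they made 6 members at least 1.5-fold lower, against 8.24% of all measured genes. Unscaled, Omd, Ogn and Lum were at -0.52, -0.49 and -0.34, which left 3 members against 2.67% of genes. Scaling on the spike-ins also left 3, against 2.59% of genes. With normexp background correction Omd was at -0.52 and 5 members were at least 1.5-fold lower, against 4.5% of genes.

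Decorin gave the signal 43045 in control and 44384 in cast. The cast spot was the brighter before scaling and the dimmer after it, at 91.3 against 112 times the 75th percentile. Its log2 ratio was -0.29, with a spot-level SD of 0.08, and it was 0.04 unscaled and 0.06 scaled on the spike-ins. The direction for Dcn therefore depended on the scale. Kera, Chad, Fmod, Omd, Ogn and Lum were below 0 under every scaling tried and with normexp. The alternatives in probe choice or background filter could not change a member, since each had 1 probe that passed on both arrays.

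After this scaling, the remaining 3 members were higher on the cast array by less than 1.5-fold. Biglycan gave 227 and 300, a log2 ratio of 0.06, which was 0.629 times its spot-level SD of 0.10. Unscaled it was at 0.4, and scaled on the spike-ins at 0.41. Asporin, a class I member of tendon and cartilage that binds collagen and TGF-beta, gave 125 and 193, a log2 ratio of 0.29 with a spot-level SD of 0.11. Prelp, a heparin-binding member that links basement membranes to collagen, gave 14.1 and 25.3, a log2 ratio of 0.50 with a spot-level SD of 0.18. Its spots lay close to the lowest signals called well above background, 13.1 in control and 20.6 in cast, and with normexp its log2 ratio was 0.03. At least 1.5-fold higher were 0 of the 10 members, against 7.05% of all measured genes. Unscaled, Prelp at 0.84 and Aspn at 0.62 were past that line, 2 members against 23.7% of genes. The spike-in scaling also gave 2, against 24.5% of genes. With loess 1 was, Prelp at 0.61, against 7.66% of genes.

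**Figure D2:**
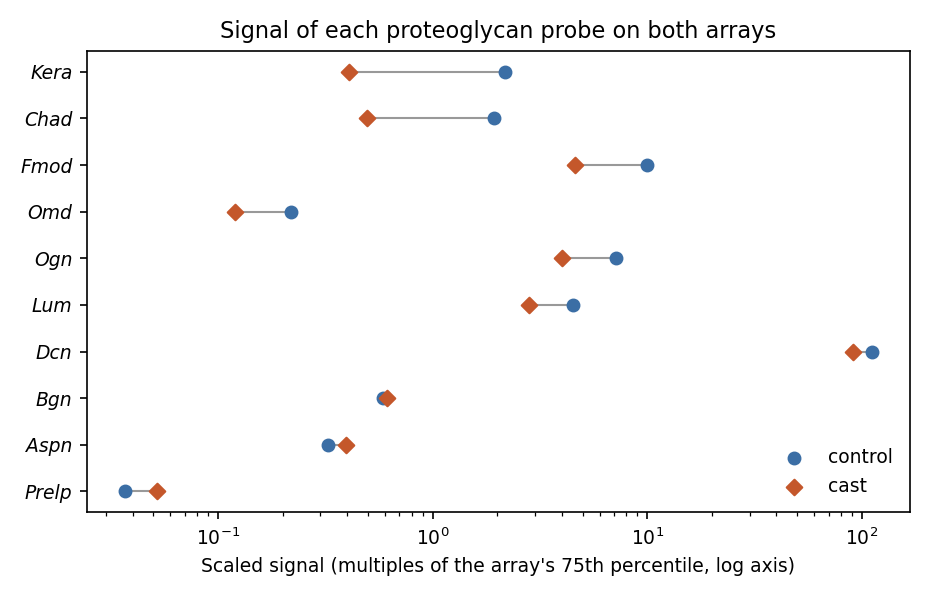
Scaled signal of each of the 10 probes (horizontal log axis, in multiples of the array's 75th percentile) on the control array (circles) and the cast array (diamonds), with genes ordered by log2 ratio. The distance between the 2 symbols of a row is the difference, from Kera (2.17 against 0.407) to Prelp (0.0367 against 0.052), and positions are not comparable between rows, since probes differ in how well they bind.

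**Figure D3:**
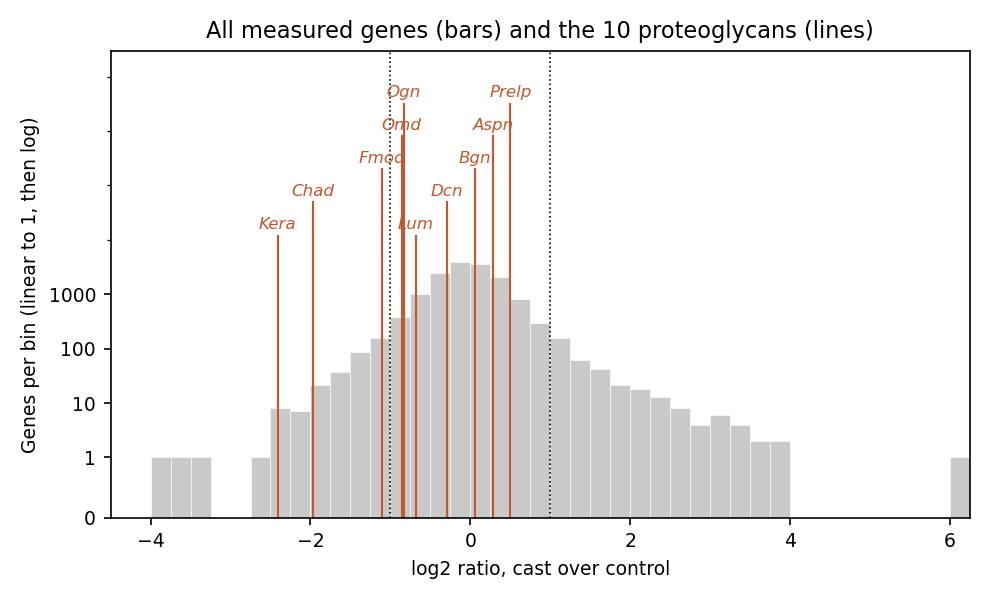
Number of measured genes per bin of log2 ratio (grey bars, vertical axis linear to 1 and logarithmic above), with the 10 proteoglycans as lines at their own log2 ratio (line heights only separate the labels) and dotted lines at a 2-fold difference. Kera, Chad and Fmod lie past the lower line and none of the 10 past the upper one.

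The members differed among themselves by 2.92 on the log2 scale, from Kera to Prelp, with an SD between members of 0.94, against an SD of 0.48 over all measured genes. A factor common to a whole array does not alter the differences between members. By class, the 3 members of class I ran from -0.29 to 0.29 with a median of 0.06, and 0 of them were 2-fold lower. The 5 members of class II ran from -2.41 to 0.50 with a median of -0.86, with 4 below 0 and 2 at least 2-fold lower. The single members of classes III and IV were Ogn and Chad, at -0.83 and -1.97. With so few genes per class, these are counts and not a comparison of classes.

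**Figure D4:**
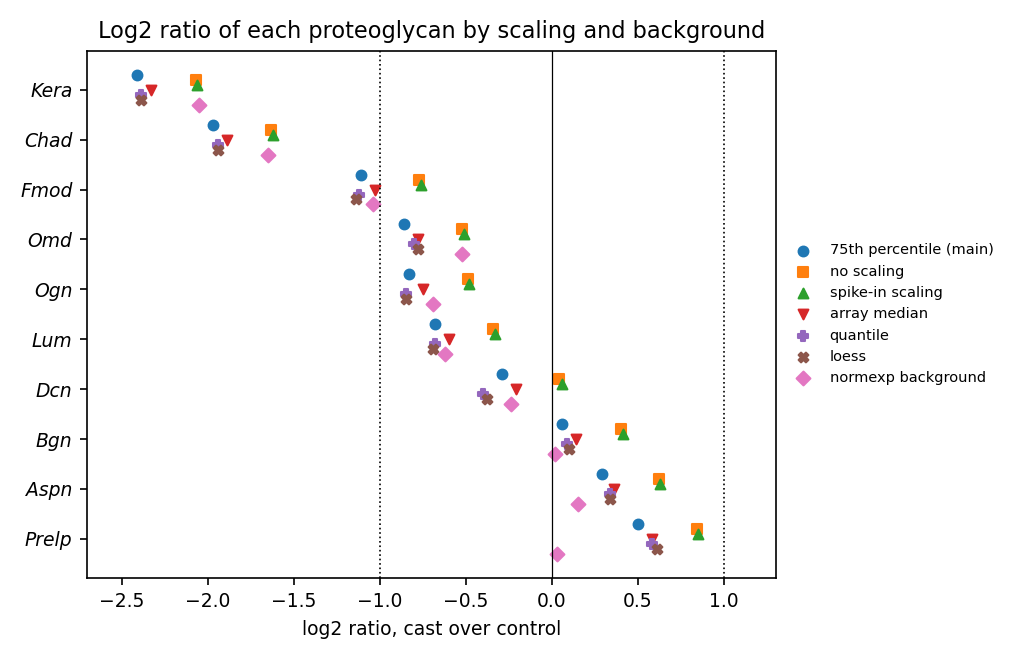
Log2 ratio of each proteoglycan (horizontal axis, cast over control) under the 75th percentile scaling and 6 other scalings or background corrections, with dotted lines at a 2-fold difference. Kera and Chad stay past the lower line under all 7, Fmod leaves it when unscaled or scaled on the spike-ins, and Dcn crosses 0 under those same 2.

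Of the 10 genes, 8 lie in 3 clusters. On chromosome 10 of mm9 the probes of Dcn, Lum and Kera lie within 96.1 kb, in that order, with log2 ratios of -0.29, -0.68 and -2.41. On chromosome 13 those of Aspn, Omd and Ogn lie within 57.1 kb, with log2 ratios of 0.29, -0.86 and -0.83. On chromosome 1 Prelp and Fmod, 137 kb apart, were at 0.50 and -1.11. Chad on chromosome 11 and Bgn on chromosome X have no other member near them.

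The promoters given are those of the 3 members with the largest differences. They are the 250 bases before the gene start from RefSeq (GRCm38.p6), where 8 of the 10 members were matched and Dcn and Lum were not. The motifs searched on both strands were the TATA box, spelled TATAAA, and the CCAAT box, spelled CCAAT. The E-box bound by helix-loop-helix factors was searched as CANNTG. The sites of AP-1 and TEAD factors were searched as TGANTCA and, for TEAD, GGAATG. Capitals mark each match.
Kera, chr10:97606955-97607204, plus strand: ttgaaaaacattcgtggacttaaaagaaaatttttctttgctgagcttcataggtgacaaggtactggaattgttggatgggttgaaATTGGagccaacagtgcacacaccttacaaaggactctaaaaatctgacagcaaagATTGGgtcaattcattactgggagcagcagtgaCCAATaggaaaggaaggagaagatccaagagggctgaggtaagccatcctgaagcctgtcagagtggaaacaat
Chad, chr11:94564797-94565046, plus strand: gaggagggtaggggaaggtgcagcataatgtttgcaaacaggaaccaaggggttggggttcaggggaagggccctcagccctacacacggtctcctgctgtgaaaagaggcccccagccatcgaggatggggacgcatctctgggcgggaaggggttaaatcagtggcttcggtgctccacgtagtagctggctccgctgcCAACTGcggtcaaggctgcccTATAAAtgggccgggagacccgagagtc
Fmod, chr1:134037004-134037253, plus strand: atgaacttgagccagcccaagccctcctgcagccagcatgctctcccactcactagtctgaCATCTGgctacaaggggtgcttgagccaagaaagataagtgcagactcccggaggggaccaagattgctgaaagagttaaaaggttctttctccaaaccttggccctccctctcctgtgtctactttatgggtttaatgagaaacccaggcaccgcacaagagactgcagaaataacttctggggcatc
The Kera stretch held 3 CCAAT matches, starting 163, 107 and 74 bases before the gene start. The Chad stretch held TATAAA 28 bases and an E-box 49 bases before it, and that of Fmod an E-box 189 bases before it. No motif was found in all 3 stretches. CCAAT was present in 3 of the 8 member promoters (Prelp, Kera and Aspn) and in 33.8% of all 32851 promoter stretches of that length. TATAAA was present in 3 of 8 (Chad, Aspn and Ogn) and in 12.4% of all, and the E-box in 5 of 8 and in 66.2% of all. GGAATG was found in the Ogn stretch alone, against 12.6% of all, and TGANTCA in 0 of 8, against 6.75%. The stretches do not overlap for different members, but TATAAA matches overlap each other in Ogn. A match describes letters in a window and not a bound factor, and whether these genes share control was not tested.

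Among the other small leucine-rich proteins of the matrix, 4 of 8 were measured, all 4 were below 0, and 1 was at least 2-fold lower. That gene was Ecm2, which neighbours Aspn in the RefSeq gene order, with a signal of 233 in control and 129 in cast and a log2 ratio of -1.19. Chadl was at -0.50, with a second probe at -0.02, and Tsku at -0.27. Unscaled or scaled on the spike-ins, 2 of the 4 were below 0, and Ecm2 was short of 2-fold at -0.85 and -0.84, as it was with normexp at -0.88. Epyc, Optc, Nyx and Podnl1 were not well above background on either array. Epyc lies in the chromosome 10 cluster beside Kera and gave 2.91 and 4.58.

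The collagens that these proteoglycans bind were lower as well. Of 14 fibrillar, fibril-associated and type VI chains, 11 were measured. All 11 were below 0, from -1.76 to -0.09, against 53.0% of all measured genes. Their median was -0.80 and 4 were at least 2-fold lower, against 2.11% of all measured genes. Col1a1, a chain of type I collagen, gave 9875 in control and 3688 in cast, a log2 ratio of -1.76. Col1a2, the other chain, was at -1.70, and Col11a1, a fibril-nucleating chain, was at -1.2. The collagen median lay between -0.86 and -0.45 over the alternatives. When the arrays were unscaled or scaled on the spike-ins, 10 of the 11 were below 0 and 2 at least 2-fold lower, with Col11a1 at -0.87 and -0.86. With normexp 2 were at least 2-fold lower as well, with Col11a1 at -0.52. Of the 15142 measured genes, 120 were at least 2-fold lower unscaled, 118 scaled on the spike-ins and 149 with normexp.

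Enzymes that build the sugar chains showed smaller differences. Of 22 genes for the linker and for chondroitin and dermatan sulfate, 19 were measured, with a median of -0.07, 1 at least 2-fold lower and 0 at least 2-fold higher. Chst15, a chondroitin sulfotransferase, was at -1.04, but between -0.98 and -0.68 and short of 2-fold under the 5 other scalings and normexp. The linker enzymes B3galt6 and B4galt7 were at -0.87 and -0.65. With normexp they were at -0.44 and -0.35, and unscaled at -0.53 and -0.31. Of 8 keratan sulfate enzymes, 4 were measured and had a median of -0.32, with 0 past 2-fold. B4galt4, Chst1 and B3gnt2 were at -0.58, -0.47 and -0.17. Of 22 proteoglycans of other families, 17 were measured, with a median of -0.21 and 0 past 2-fold in either direction. Lubricin (Prg4) was at 0.70, glypican 1 (Gpc1) at 0.68 and syndecan 1 (Sdc1) at -0.62. Unscaled or scaled on the spike-ins, Prg4 (1.04 and 1.05) and Gpc1 (1.01 and 1.02) were past 2-fold. The medians of these 3 lists lay above 0 when unscaled or scaled on the spike-ins, that of the chondroitin list also with median scaling, and that of the other proteoglycans also without a filter on dim probes.

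For signalling partners, the TGF-beta list had 16 of 16 genes measured, with a median of 0.16 and 1 at least 2-fold higher. Ltbp2, a matrix protein of the latent TGF-beta binding family, was at 1.29, Ltbp4 at -0.61 and connective tissue growth factor (Ccn2) at 0.61. With normexp Ltbp2 was at 0.83 and 0 were at least 2-fold higher, and with the dimmest probe of each gene 2 were. Of 12 receptors reported to bind these proteoglycans or pass on their signal, 10 were measured, with a median of 0.22. The innate immune receptor Tlr2, which soluble biglycan engages, was at 1.02, the endothelial receptor Kdr at -0.56 and Tlr4 at 0.44. A second Kdr probe was at -0.89. With normexp Tlr2 was at 0.52. The receptor Erbb4 was not measured, as it passed the background flag in control alone, with 30.4 in control and 10.8 in cast. Of 10 proteases that process or cleave them, 9 were measured, with a median of -0.10, below 0 except when unscaled or scaled on the spike-ins. Mmp13 was not measured, as it passed the background flag in cast alone, with 2.75 in control and 117 in cast. Stromelysin 1 (Mmp3) gave 25.6 in control and 144 in cast, a log2 ratio of 2.16 that was 0.88 and short of 2-fold with normexp. Mmp14 was at 0.95, at 1.01 to 1.3 under the 5 other scalings and at 0.53 with normexp. Bmp1, which processes the biglycan precursor, was at -0.61, with a second probe at -0.44.

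Markers of cells that could carry these transcripts also differed between the arrays. The labelled tissue was checked with 8 muscle fibre markers, all of them measured on both arrays. Of 8 tendon markers, 4 were at least 2-fold lower, against 2.11% of all measured genes. At least 2-fold higher was 1, against 2.23%, and the list median was -1.01. Unscaled or scaled on the spike-ins 1 was at least 2-fold lower, and with normexp 2 were. Cilp was at 2.48, Cilp2 at -1.79 and Comp at -1.27. The defining tendon gene Tnmd was at -1.25, and at -0.91 unscaled and -0.86 with normexp, while the tendon transcription factor Scx was at 0.48. The summed scaled signal of the tendon list was 31.5 in control and 41.0 in cast, in multiples of the 75th percentile. The brightest gene of the list, Thbs4, gave 6814 in control and 11880 in cast, a log2 ratio of 0.46. Of 10 fibroblast markers, 9 were measured and 8 were below 0, with a median of -0.26 and a summed signal of 50.1 and 41.5. Thy1, Dpt and Clec3b were at -1.17, -0.85 and -0.76, and the general fibroblast marker Pdgfra was at -0.07. Unscaled or scaled on the spike-ins, the fibroblast median was above 0 and Thy1 was at -0.83 and -0.82. Of 11 cartilage and bone markers, 2 were measured, Col9a1 at -1.33, whose second probe gave 0.28, and Sox9 at -0.09. Unscaled, they were at -0.99 and 0.25, and with normexp Col9a1 was at -0.76. Acan passed the background flag in cast alone and Col2a1 in control alone. The part of tendon tissue and fibroblasts in the proteoglycan differences was not tested, and in bulk muscle fewer cells of a type cannot be told apart from less RNA per cell.

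The other marker lists had 0 genes past 2-fold, except 1 adipocyte marker that was higher unscaled and on the spike-in scale and 1 macrophage marker that was higher without the filter on dim probes. Macrophage markers had a median of 0.36 over 8 of 10 genes and a summed signal of 22.6 in control and 19.7 in cast. Of the 8, 6 were above 0, while the brightest, Itgam, gave 5312 and 4634, a log2 ratio of -0.53. Cd68 and Cd163 were not well above background. Endothelial markers had a median of -0.32, Schwann cell markers -0.14, adipocyte markers -0.15, pericyte and smooth muscle markers -0.10 and muscle fibre markers -0.24. These last 5 medians lay above 0 when unscaled or scaled on the spike-ins.

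**Figure D5:**
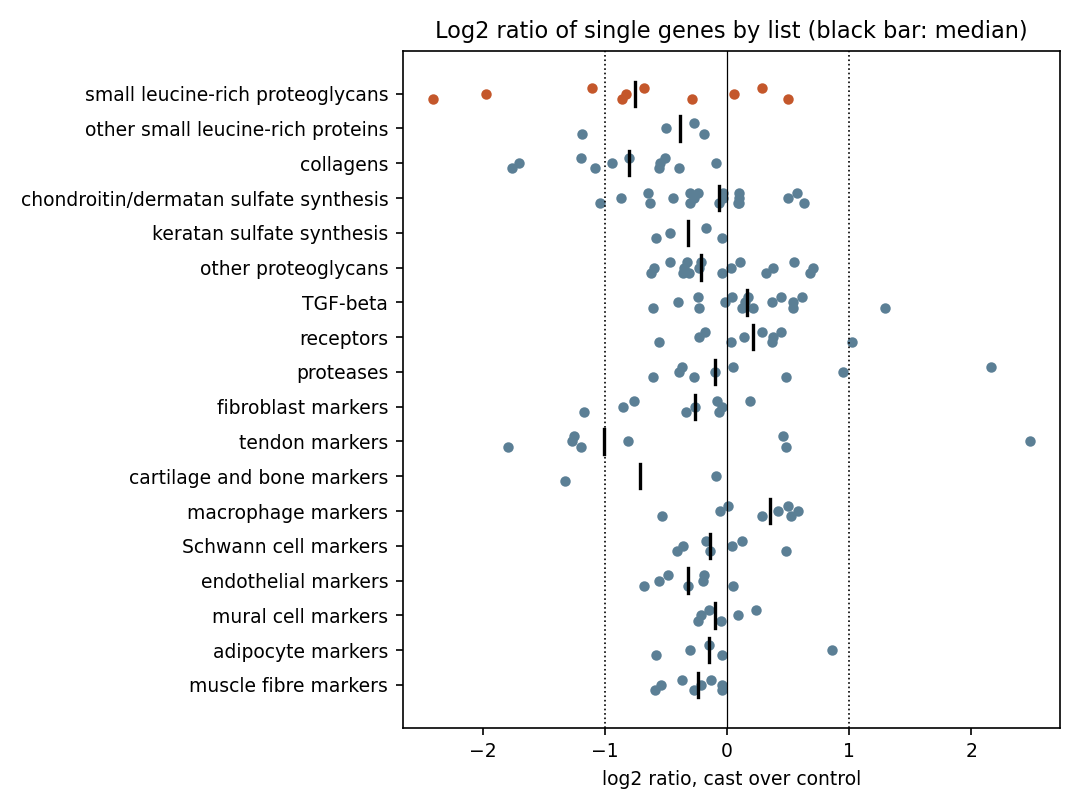
Log2 ratio (horizontal axis, cast over control) of each measured gene, by list, with the 10 proteoglycans on top, black bars at the list medians and dotted lines at a 2-fold difference; some genes stand in more than 1 list. The medians of the proteoglycans, the collagens and the tendon markers lie at -0.76, -0.80 and -1.01.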

How the data were processed

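Each pool was labelled with Cy3 and read on a 1-colour Agilent mouse array whose probes have mm9 coordinates, per the deposited files. Both arrays share 1 slide and 1 scan time. Per the submitters' processing notes, Agilent Feature Extraction 9.5 gave the spot intensities. Per the file headers, the processed intensity is background-subtracted and detrended within the array with no step that links both arrays. The authors also deposited a series table of intensity, equal to the processed signal over the array's 75th percentile times 100, with 54.9% of its values rounded to whole numbers (largest difference 0.5). Its column medians were 9.00 in control and 8.70 in cast. It served as an alternative.

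The log2 processed signal was averaged over the spots of a probe, leaving out control spots and non-uniform spots (2 in control, 9 in cast), and each array's 75th percentile (385 and 486) was subtracted. A probe was measured when more than 0.5 of its spots were flagged well above background on both arrays, which held for all 10 members. Well above background were 23896 of 39418 probes in control and 22373 in cast, with 0 saturated gene spots. The brightest probe stood for a gene. Accessions gave current symbols for 26048 probes, and otherwise the array's name was kept unless it was an accession or a LOC or EG number. The normalization code was tested on simulated data, which does not show which scaling suits these arrays. R 4.3.3 and limma 3.58.1 were used.

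With 1 array per group there is no test, and counts use 2-fold and 1.5-fold lines. The precision is limited by the number of arrays. Other scalings, normexp (offset 50), other probe rules and no filter on dim probes were tried. The members, the lists and the rule for named genes (all members, and at most 3 genes per list with the largest absolute log2 ratio, plus genes that define a list) were chosen with earlier results of these data known. Pdgfra, Tnmd, Scx, Epyc, Acan, Col2a1, Tlr4, Cd68 and Cd163 are named as genes that define a list or a cluster. Mmp13 and Erbb4 are named as genes that passed the background flag on 1 array alone, and Thbs4 as the brightest gene of its list.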

Additional observations from a re-analysis of the deposited data

How the results depend on the processing

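Relative to the 75th percentile, the median of all measured genes was -0.03, and it was 0.31 unscaled and 0.32 when scaled on the spike-ins. The median of the 10 proteoglycans was then -0.42 and -0.41 in place of -0.76, and -0.57 with normexp. The members at least 2-fold lower were 3, and 2 under either of these settings, where Fmod was left out, and 0 were 2-fold higher in any alternative. The members below 0 were 7, and 6 under either of them (a result added after seeing the data, as were the next counts). The members at least 1.5-fold lower were 6, and 3 unscaled or scaled on the spike-ins, and those at least 1.5-fold higher were 0, 2 under either of these settings and 1 with loess. The shares of all genes past these 1.5-fold lines are given above. Over all genes, 319 were at least 2-fold lower and 338 at least 2-fold higher. These counts were 120 and 834 unscaled, 118 and 863 scaled on the spike-ins, 149 and 184 with normexp, and 881 and 761 without a filter on dim probes. With detection on at least 1 array, 538 were lower, and with median scaling the split was 256 and 401. The unscaled, median and spike-in settings each move every log2 ratio by 1 constant amount, as set by their definition. No filter and detection on 1 array test more and dimmer genes. The cause of the shifts with normexp was not tested, nor why the scalings differ. Since each member has 1 probe, the probe rules changed none of their values. The spot-level SD, with a median of 0.10, covers neither mice nor hybridisations. No paired analysis was possible because each group has 1 array, and no replicate could be left out.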
